A study of Homo sapiens with 4 samples.

Results

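The genes described here are 36 homologous recombination, Fanconi anaemia, checkpoint kinase and mismatch repair genes, measured in lung adenocarcinoma (LAD) cells with and without a constitutively active AKT1. They were listed by name, with no threshold on their values, and all 36 were found among the 60558 Ensembl gene IDs of the deposited files. The list was chosen with earlier results of these data known, so the counts of members below are descriptions and not a blind sample of repair genes. The study transduced the established LAD lines A549 and HCC827 with vector or with myr-AKT1, a form of the kinase whose myristoylation signal holds it at the membrane. RNA of each of the 4 resulting cell populations was sequenced as 1 library, so that no difference within a line has a replicate check. The sources used here do not say whether the cells were pools or single clones, and reads of the introduced and the endogenous AKT1 cannot be told apart.

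Homologous recombination repairs a broken chromosome by copying the intact sister. The ends are first resected to single strands, BRCA1 and BRCA2 then help prepare those strands for the search of the sister, and helicases resolve the joined molecules. The Fanconi pathway handles crosslinks between the DNA strands: a core complex attaches ubiquitin to FANCD2 and FANCI, which brings in nucleases and the recombination machinery. ATM and ATR are the kinases that sense breaks and stalled forks and act through CHEK2 and CHEK1. Many of these genes are known to be transcribed most strongly in dividing cells that are copying their DNA.

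The values are normalized counts, which are reads divided by the size factor of each library, and a library held between 16322183 and 33530317 reads. Folds are log2 ratios of myr-AKT1 over vector with a 95% Clopper-Pearson interval that covers counting error only. A gene was called lower or higher in a line past a log2 fold change of -1 or 1, among genes whose normalized counts averaged 10 or more over the pair, as those of all 36 members did in both lines. AKT1 itself was at 6297 in A549-myr-AKT1 and 4243 in A549-vector, and at 4806 and 2175 in the corresponding HCC827 libraries, so that it was higher in the myr-AKT1 library of each line. Its folds were 0.57 in A549 and 1.14 in HCC827, so that it passed the threshold in HCC827 and not in A549. Of 8 lung epithelial markers, 6 in A549 and 8 in HCC827 reached that mean. SFTPB, a surfactant gene, had no read in either A549 library, and NKX2-1, a lung lineage factor, had no read in A549-vector.

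Most of the 36 repair genes were lower in the myr-AKT1 libraries of both lines. In A549, 26 of 36 members were called lower, where 9.87% of all 18750 genes were, and no member was called higher, where 15.1% of all genes were. In HCC827, 24 of 36 were called lower against 12.5% of 17358 genes, and again no member was called higher against 14.1%. The median log2 fold change of the members was -1.83 in A549 and -1.30 in HCC827, whereas that of all genes was -0.03 and -0.04. Summed over the members, the normalized counts were 31996 in A549-myr-AKT1 and 77113 in A549-vector, 2.41 times lower. The sums in HCC827 were 22811 and 51962, 2.28 times lower. With bulk RNA, fewer cells that express a gene and less of its RNA per cell cannot be told apart.

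**Figure D1:**
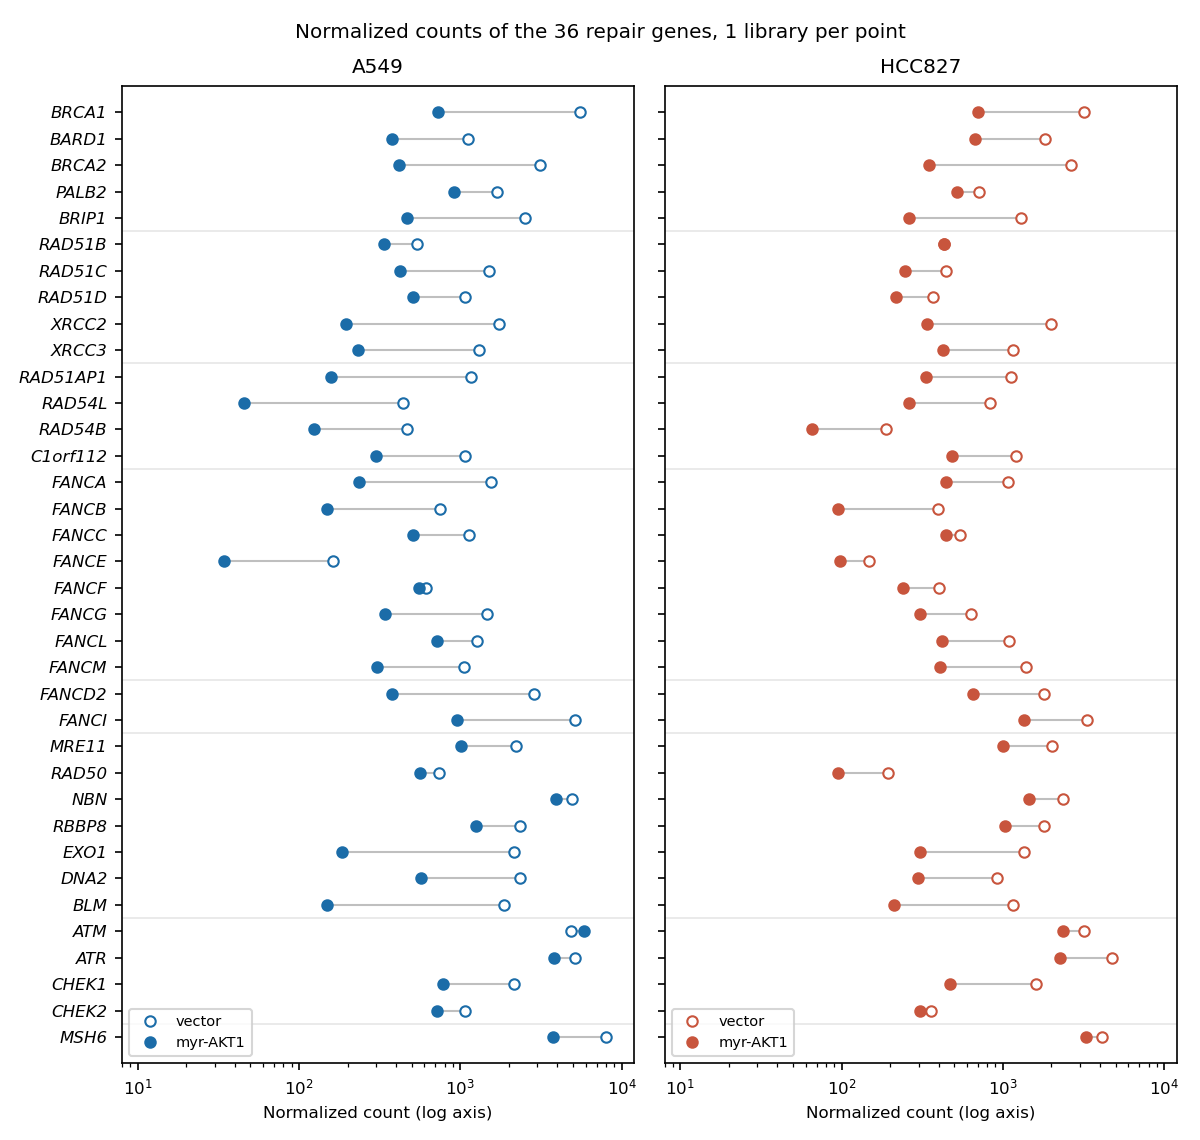
Normalized count of each of the 36 repair genes on a log axis, with A549 on the left and HCC827 on the right; open circles are vector libraries, filled circles myr-AKT1 libraries, 1 library each, and grey lines separate the functional groups. The filled circle lies to the left of the open one for most genes; ATM in A549 lies the other way, with 5818 in myr-AKT1 and 4862 in vector, and the circles of RAD51B in HCC827 coincide.

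Of the 36 members, 21 were called lower in both lines, beside 4.09% of the 15704 genes tested in both. Another 5 were called in A549 and not in HCC827 (RAD51C, RAD51D, FANCC, FANCE and MSH6), beside 5.04% of those genes. HCC827 alone had 3 (FANCL, RAD50 and ATR), a share near the 7.59% of all genes. The other 7 were called in neither (PALB2, RAD51B, FANCF, NBN, RBBP8, ATM and CHEK2), as were 83.3% of genes. The plot of levels by library shows these last genes as the pairs of circles that lie close together. The whole counting interval lay below 0 for 34 members in A549, beside 36.5% of all genes, and for 34 in HCC827, beside 37.1%. At a log2 fold change of -2 or less there were 16 members in A549, beside 2.81% of genes, and 7 in HCC827, beside 3.09%. ATM in A549 was the only member whose interval lay above 0.

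The fit over all 4 libraries used the cell lines as the only repeats of the contrast. By limma on log2(normalized count + 1) with the line as a block, 18 of 36 members passed a Benjamini-Hochberg adjusted p of 0.05 in the lower direction, beside 1.73% of 19314 genes. None passed in the higher direction, beside 1.29% of genes; all 36 estimates were negative, so none was higher at an unadjusted p under 0.05, and edgeR and DESeq2 called none higher either. At an unadjusted p under 0.05, 29 members were lower, beside 9.24% of genes. This fit has 1 residual degree of freedom, and none of the 18 calls held with a pseudocount of 0.1 or without the block. In both of those settings 0 of all 19314 genes passed in either direction. On the recovered reads edgeR's quasi-likelihood test called 15 members lower, beside 228 of 19314 genes, and DESeq2 called 21, beside 516.

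Among the genes of the BRCA group, BRCA2, BRCA1, BRIP1 and BARD1 fell in the fit and PALB2 did not pass. BRCA2, a mediator that acts on single-stranded DNA during strand exchange, had 416 normalized counts in A549-myr-AKT1 and 3118 in A549-vector, and 347 and 2628 in the corresponding HCC827 libraries. The fold was nearly the same in the lines, at -2.91 (-3.07 to -2.75) in A549 and -2.92 (-3.10 to -2.74) in HCC827. It had the lowest adjusted p of the members in the limma fit, 0.0059, at a log2 fold change of -2.91 ± 0.26 (SE). BRCA1, a ubiquitin ligase that promotes resection, had 731 in A549-myr-AKT1 and 5516 in A549-vector, and 706 and 3171 in the corresponding HCC827 libraries. Its fold was -2.92 in A549 and -2.17 in HCC827, and its limma adjusted p was 0.0086. BRIP1, a helicase that binds BRCA1, was lower by a similar amount in both, with -2.43 in A549 and -2.31 in HCC827. BARD1, the ligase partner of BRCA1, had -1.57 and -1.46. PALB2, the bridge between BRCA1 and BRCA2, had the smallest folds of the group. Its normalized counts were 917 in A549-myr-AKT1 and 1689 in A549-vector, and 517 and 713 in the HCC827 libraries, folds of -0.88 and -0.46 (limma adjusted p = 0.26).

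RAD51B, RAD51C, RAD51D, XRCC2 and XRCC3, whose proteins form small complexes that assist strand exchange, were uneven. XRCC2 had 195 normalized counts in A549-myr-AKT1 and 1735 in A549-vector, and 337 and 2002 in the HCC827 libraries. Its folds of -3.16 and -2.57 were the lowest of these 5 genes in each line, and its limma adjusted p was 0.0077. XRCC3 had folds of -2.48 and -1.43 (limma adjusted p = 0.032), but 76.7% of its exon bases lie within exons of KLC1 on the opposite strand, and the sources do not state whether reads were counted by strand. RAD51C was at -1.84 in A549 and -0.84 in HCC827, and RAD51D at -1.06 and -0.76, so that each was called only in A549 and neither passed the fit. RAD51B was level in HCC827, with 431.6 in myr-AKT1 and 431.5 in vector, an interval of -0.20 to 0.20, and had a fold of -0.67 in A549.

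RAD54L, RAD51AP1, C1orf112 and RAD54B, which act at or around strand exchange, were all called lower in both lines. RAD54L, a motor protein of strand invasion, had a normalized count of 45.8 in A549-myr-AKT1, from 40 reads, and of 440 in A549-vector. The HCC827 libraries had 262 and 834. The folds were -3.26 (-3.77 to -2.80) and -1.67 (-1.89 to -1.46). RAD51AP1, which stimulates the same step, had -2.89 and -1.76, and C1orf112, which works with FIGNL1, had -1.83 and -1.30. These 3 passed the limma fit, with adjusted p of 0.038, 0.024 and 0.040. RAD54B, a relative of RAD54L, had -1.91 and -1.53 and did not pass (limma adjusted p = 0.088); its HCC827-myr-AKT1 value rests on 52 reads, and 66.0% of its exon bases are shared with FSBP on the same strand.

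In the Fanconi core complex, 6 of 8 members were called lower in A549, 5 in HCC827 and 4 in both, beside 9.87%, 12.5% and 4.09% of all genes. FANCA, a scaffold subunit, had 237 normalized counts in A549-myr-AKT1 and 1549 in A549-vector, and 442 and 1081 in the HCC827 libraries, folds of -2.71 and -1.29. FANCB had -2.33 and -2.07, and FANCM, the translocase that anchors the complex at a lesion, had -1.78 and -1.76. These 3 fell in the limma fit, with adjusted p of 0.040, 0.029 and 0.027. FANCG had -2.10 and -1.04 (limma adjusted p = 0.064). FANCE, the subunit that binds FANCD2, had the fewest counts of the members in A549, 34.4 in A549-myr-AKT1, from 30 reads, and 162 in A549-vector against 98.1 and 148 in HCC827. Its fold was -2.24 (-2.85 to -1.68) in A549 and -0.59 (-0.99 to -0.20) in HCC827. FANCC had -1.14 and -0.29. FANCL, the ubiquitin ligase subunit, had the opposite order, -0.83 in A549 and -1.40 in HCC827. FANCF, an adaptor encoded by a single exon, had 552 in A549-myr-AKT1 and 614 in A549-vector, an interval of -0.32 to 0.02 that holds 0, and a fold of -0.75 in HCC827.

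Both subunits of the complex that the core modifies were lower in both lines. FANCD2 had 380 normalized counts in A549-myr-AKT1 and 2875 in A549-vector, and 652 and 1790 in the HCC827 libraries. FANCI had 955 and 5117 in A549, and 1357 and 3343 in HCC827. The folds of FANCD2 were -2.92 and -1.46 and those of FANCI were -2.42 and -1.30. Both fell in the limma fit, with adjusted p of 0.029 and 0.028.

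**Figure D2:**
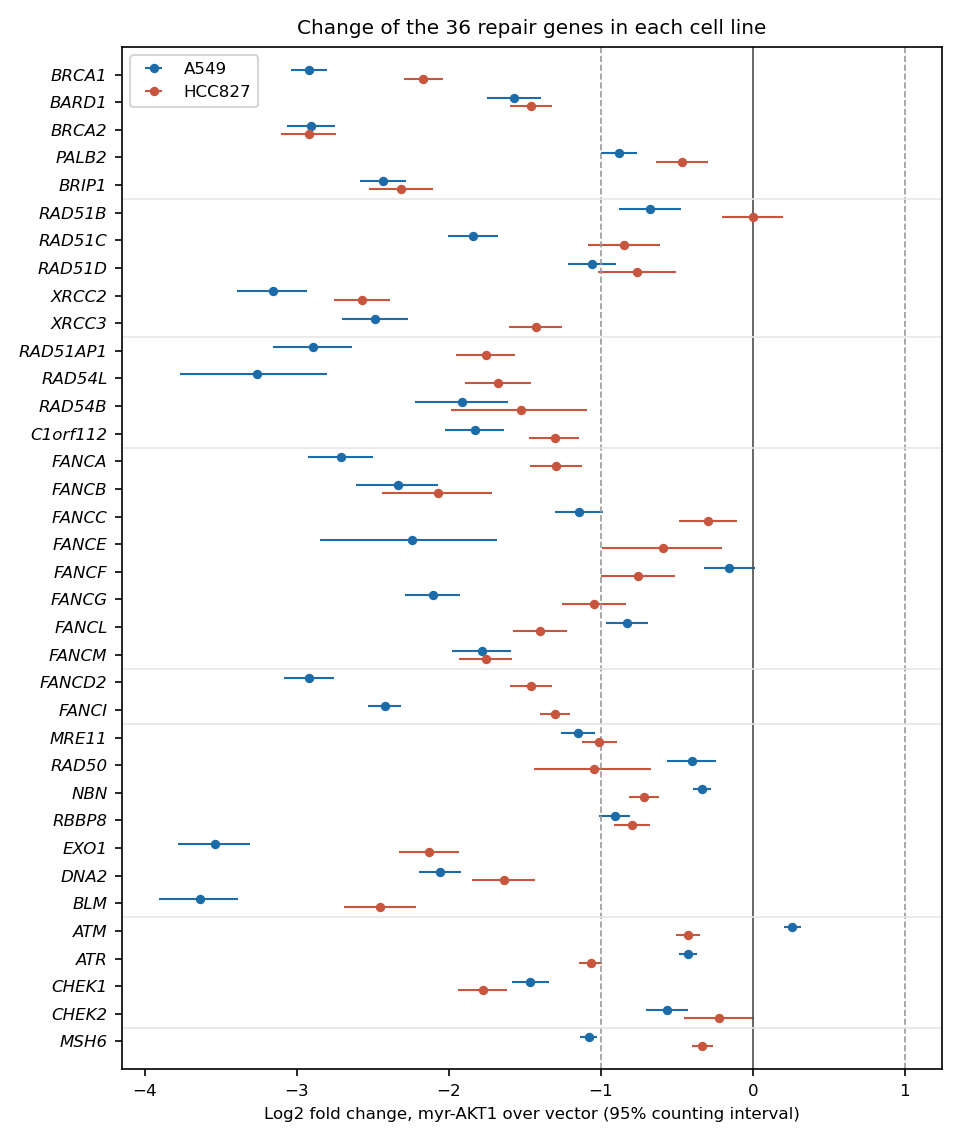
Log2 fold change of myr-AKT1 over vector for each of the 36 repair genes, blue for A549 and red for HCC827, with bars for the 95% counting interval and dashed lines at the call threshold of -1 and 1. BLM and EXO1 reach the lowest values in A549, -3.64 and -3.54, and ATM in A549 is the only point with an interval above 0.

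In the list of 7 resection and helicase genes, 4 were called lower in A549, 5 in HCC827 and 3 in the fit. The shares of all genes were 9.87%, 12.5% and 1.73%. The MRE11, RAD50 and NBN proteins form the complex that first binds a broken end, and RBBP8 is its cofactor. MRE11 stood just past the threshold, at -1.15 in A549 and -1.01 in HCC827. RAD50 was at -0.40 and -1.04, but 76.9% of its exon bases lie in an annotated readthrough gene on the same strand, so its counts are uncertain. NBN had 3932 normalized counts in A549-myr-AKT1 and 4957 in A549-vector, and 1450 and 2375 in the HCC827 libraries, folds of -0.33 and -0.71. RBBP8 was at -0.91 and -0.79. None of the 4 passed the fit, with limma adjusted p between 0.071 and 0.37.

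The other 3 genes of the list, BLM, EXO1 and DNA2, were called lower in both lines. BLM, the helicase lost in Bloom syndrome, had 150 normalized counts in A549-myr-AKT1 and 1868 in A549-vector, and 210 and 1148 in the HCC827 libraries. That is 12.5 times lower in A549 and 5.46 times lower in HCC827, and in A549 BLM was the 55th lowest fold of the 18750 genes. EXO1, a nuclease that extends resection, had 184 in A549-myr-AKT1 and 2145 in A549-vector, and 308 and 1349 in the HCC827 libraries, folds of -3.54 and -2.13. DNA2, the nuclease that works with BLM, had -2.06 and -1.64. All 3 fell in the limma fit, with adjusted p of 0.011 for BLM, 0.015 for EXO1 and 0.023 for DNA2.

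Of the checkpoint kinases, CHEK1 was the only one called lower in both lines. It had 784 normalized counts in A549-myr-AKT1 and 2161 in A549-vector, and 471 and 1609 in the HCC827 libraries, folds of -1.46 and -1.77 (limma adjusted p = 0.027). ATR, its upstream kinase, had 3825 and 5136 in A549 and 2257 and 4725 in HCC827, folds of -0.43 and -1.07. CHEK2 had -0.56 and -0.22, and its HCC827 interval of -0.45 to 0.01 holds 0. ATM had 5818 in A549-myr-AKT1 and 4862 in A549-vector, a fold of 0.26 (0.20 to 0.31), and 2353 and 3165 in the HCC827 libraries, a fold of -0.43 (-0.51 to -0.35). MSH6, which recognises mismatches, had 3764 and 7958 in A549 and 3259 and 4105 in HCC827, folds of -1.08 and -0.33.

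The calls nearest the threshold moved with the scaling. Just past it were RAD51D and MSH6 in A549 and MRE11, FANCG, RAD50 and ATR in HCC827. With size factors over all 4 libraries the count was 24 in A549, with MSH6 at -0.98. Scaled to the total reads of the library it was 20 in HCC827, with ATR at -0.99. RAD51B in HCC827, level at 0.00, was the only fold whose sign depended on the scaling.

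A549 had the larger decrease for more of the genes. The interval of the difference between the lines, from the counting error of all 4 libraries, lay below 0 (A549 further down) for 20 of 36 members, beside 35.4% of all genes, and above 0 for 7, beside 29.4%. For 9 it held 0, beside 34.9%. The largest differences of A549 minus HCC827 were those of FANCE at -1.65 (-2.33 to -0.98), RAD54L at -1.59 (-2.10 to -1.08) and FANCD2 at -1.46 (-1.67 to -1.25). The 7 members further down in HCC827 were ATM, RAD50, ATR, FANCF, FANCL, NBN and CHEK1, from 0.69 for ATM to 0.31 for CHEK1. The interval held 0 for BRCA2, BRIP1, BARD1, FANCB, FANCM, RAD51D, RAD54B, MRE11 and RBBP8. With 1 library per condition, the spread between cultures of a line is unknown, so that these intervals are too narrow for a comparison of the lines. Across the 36 genes, the folds of the lines had a Spearman rho of 0.75, given as a description, since the genes share the 4 libraries.

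**Figure D3:**
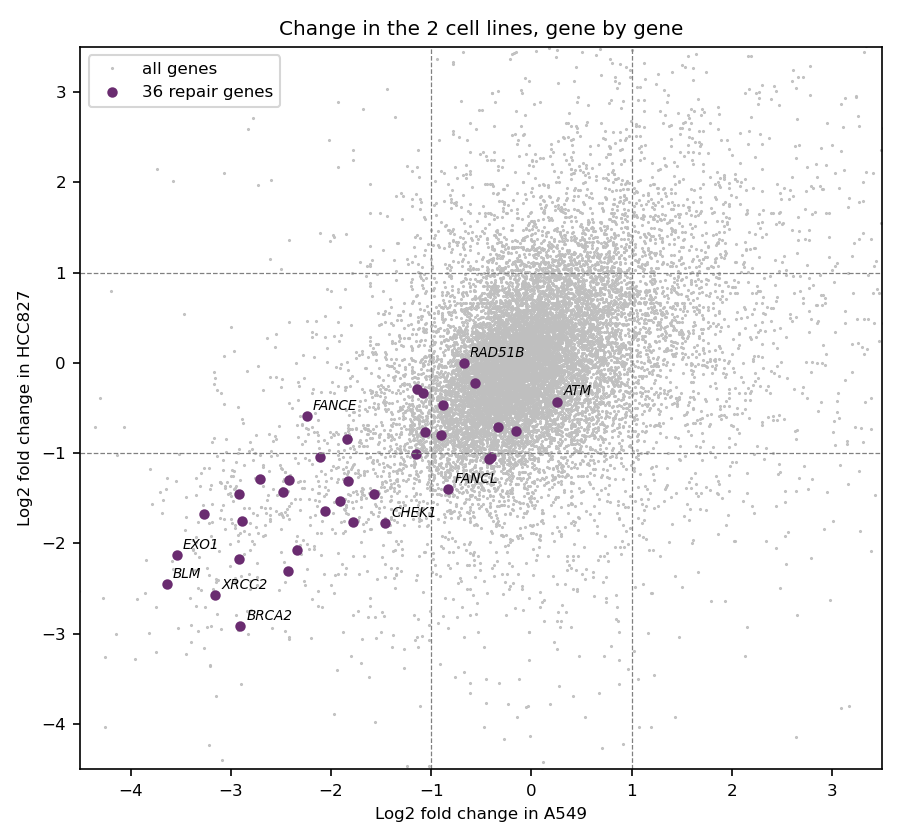
Log2 fold change of myr-AKT1 over vector in A549 (x axis) against HCC827 (y axis), grey points for all genes whose normalized counts averaged 10 or more in both lines and purple points for the 36 repair genes; dashed lines mark -1 and 1, and genes with no read in a library or outside the axes are not drawn. The lower left corner past both lines holds 21 of the 36, with BRCA2, XRCC2, BLM and EXO1 farthest out.

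Per length, the order of the levels changed as well. In RPKM, the reads of the library scaled to its total and to the length of the canonical transcript, the highest members of A549-vector were MSH6 at 63.7, FANCI at 36.9 and NBN at 36.6. In A549-myr-AKT1 they were MSH6 at 30.6, NBN at 29.5 and ATR at 16.3, with FANCI no longer among them. The highest of HCC827-vector were MSH6 at 44.3, FANCI at 32.5 and FANCL at 30.5, and in HCC827-myr-AKT1 MSH6 at 37.2, RBBP8 at 15.4 and NBN at 15.3. The lowest levels in A549 were those of FANCE, at 2.15 RPKM in vector and 0.462 in myr-AKT1. RAD50 was lowest in HCC827, at 1.08 and 0.555, although its counts are uncertain because of the overlapping readthrough gene. BLM was at 12.2 RPKM in A549-vector and 0.992 in A549-myr-AKT1, and at 10.1 and 1.95 in the HCC827 libraries.

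The start sites of the members were searched for letters of 4 regulatory motifs, because most of the genes were lower together. RefSeq promoters on GRCh38.p14, from 250 bases before to 50 after the start, were available for 32 of the 36 members; NBN, RAD54B, FANCI and DNA2 had no entry in the table used. An E2F-type motif (TTTCCCGC, TTTCGCGC, TTTGCCGC or TTTGGCGC on either strand), a site class of cell cycle genes, was found in 6 of 32, or 18.8%, and in 3.33% of 27305 promoters of the same length. The 30 bases around each match are shown 5′ to 3′ on the gene's strand, with the matching letters in capitals and offsets counted from 0 at the start base.
XRCC2, chr7:152676102-152676131, minus strand, match at 21: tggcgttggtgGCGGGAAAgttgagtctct
EXO1, chr1:241848197-241848226, plus strand, match at 4: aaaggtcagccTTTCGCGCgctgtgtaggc
FANCD2, chr3:10026424-10026453, plus strand, match at -2: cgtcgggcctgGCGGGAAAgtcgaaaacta
FANCA, chr16:89816801-89816830, minus strand, match at -172: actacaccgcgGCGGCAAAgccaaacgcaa
MSH6, chr2:47783137-47783166, plus strand, match at 3: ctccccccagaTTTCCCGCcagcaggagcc
FANCC, chr9:95317863-95317892, minus strand, match at -172: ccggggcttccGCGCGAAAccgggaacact
FANCC, chr9:95317737-95317766, minus strand, match at -46: ttcgtcggaatTTTCCCGCgacgccgcggg

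The matches of XRCC2, EXO1, FANCD2 and MSH6 lie within 30 bases of the start. The first 4 genes listed fell in the fit, and MSH6 and FANCC did not pass it, where 18 of all 36 members passed. BRCA2, BRCA1, BRIP1 and BLM fell in the fit without an E2F-type match. A match is a string of letters and not a measured binding site. The shares were set beside all promoters, of expressed genes or not, and no other gene list was searched. Whether a motif has a part in the decrease was not tested. Shares of the other motifs lay closer to those of all promoters. The CCAAT box (CCAAT) was in 14 of 32 (43.8%) and 35.7% of all, the CHR element (TTTGAA) in 4 (12.5%) and 15.4%, and the FOXO letters (GTAAACA) in 1 (3.13%) and 3.41%. BLM, the lowest member in A549, and BRIP1 had several CCAAT boxes and no exact match to the 4 E2F-type strings, and looser forms of the motif were not searched. Other members also had several CCAAT boxes and no such match, among them XRCC3 and also CHEK2 and FANCF, which were called lower in neither line. The upstream stretches of BLM and BRIP1 outside exons are shown with each CCAAT, or its reverse complement ATTGG, in capitals.
BLM, chr15:90717142-90717345, plus strand: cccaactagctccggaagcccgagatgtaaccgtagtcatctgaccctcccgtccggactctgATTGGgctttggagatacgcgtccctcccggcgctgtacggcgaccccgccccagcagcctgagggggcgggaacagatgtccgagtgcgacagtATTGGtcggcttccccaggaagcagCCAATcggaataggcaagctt
BRIP1, chr17:61863560-61863778, minus strand: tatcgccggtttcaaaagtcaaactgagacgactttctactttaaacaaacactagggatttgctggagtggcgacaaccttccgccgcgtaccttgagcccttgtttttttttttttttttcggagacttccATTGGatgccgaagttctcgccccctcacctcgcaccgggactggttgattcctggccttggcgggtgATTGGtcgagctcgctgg

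The other genes of these pathways were counted in the same way. For comparison, 9.87% of all genes were called lower in A549, 12.5% in HCC827 and 1.73% in the fit. Of 49 further recombination and Fanconi genes, 48 were tested in A549, where 20 were called lower and none higher, and 21 were called lower and none higher in HCC827, with medians of -0.61 and -0.75. The fit called 6 of them lower. POLQ, the polymerase of end joining by microhomology, had 303 normalized counts in A549-myr-AKT1 and 3155 in A549-vector, and 705 and 2755 in HCC827, folds of -3.38 and -1.97. GEN1, a nuclease that cuts joined molecules, had -1.73 and -2.75, and RMI2, a partner of BLM, had -3.22 and -1.16. Among 22 other checkpoint signalling genes, 9 were called lower in A549, 10 in HCC827 and 4 in the fit. CLSPN, the adaptor through which ATR activates CHEK1, had -2.95 and -2.79. The 9 other mismatch repair genes included 4 called lower in A549, 5 in HCC827 and 2 in the fit, with LIG1, the replicative ligase, at -2.12 and -1.36.

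End joining and nucleotide excision repair genes were listed too, with POLQ counted above and not among the end joining genes. Of 16 end joining genes, 2 were called lower in A549 (12.5%, beside 9.87% of all genes) and 4 in HCC827 (25.0%, beside 12.5%), with medians of -0.60 and -0.39. By limma 0 of the 16 passed the adjusted p and 6 were lower at an unadjusted p under 0.05; edgeR called 0 and DESeq2 called 1 lower, and limma over all genes with at least 1 read called 5. XRCC4 and PRKDC were called in both lines, at -1.05 and -1.38 and at -1.02 and -1.25. Of 22 nucleotide excision repair genes, 1 was called lower in A549 (4.55%) and 0 in HCC827, with medians of -0.29 and -0.29. By limma 0 of the 22 passed and 1 was lower at an unadjusted p under 0.05, and edgeR and DESeq2 called 0. No test compared the lists with one another.

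Proliferation markers moved with the repair genes. Of 26 markers, 25 were called lower in A549 (beside 9.87% of all genes) and 21 in HCC827 (beside 12.5%), with medians of -2.95 and -1.46. Beside 1.73% of all genes, the fit called 20 of the markers lower. Their summed normalized counts were 21397 in A549-myr-AKT1 and 145770 in A549-vector, 6.81 times lower, and 37922 and 115160 in the HCC827 libraries, 3.04 times lower. MKI67 had folds of -3.03 and -1.45, and the replication licensing genes MCM2 and MCM5 had -3.15 and -2.40 and -3.13 and -2.40. CCNE1, the G1 cyclin, had -0.49 in A549 and 0.10 in HCC827. No marker of the list had a read count of 0 in any library. The part of proliferation in the decrease of the repair genes was not tested.

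Cell type markers differed between conditions too. The lung epithelial list summed to 168610 normalized counts in A549-myr-AKT1 and 194100 in A549-vector, and to 88441 and 164120 in the HCC827 libraries. The A549 sum was carried by KRT8 and KRT18, whereas the median fold of the 6 tested markers was 0.41. Called higher in A549 were 2 (KRT19 at 2.65 and CDH1 at 1.39), beside 15.1% of all genes, and 0 were called lower, beside 9.87%. In HCC827 3 of 8 were called lower, beside 12.5% of all genes, and 0 higher, with a median of -0.79. Of 10 non-epithelial markers, 5 were tested in each line; 4 were called higher in A549 and 3 in HCC827, and their sums were 1626 and 471 in A549 and 481 and 167 in HCC827. COL1A1 had 765 in A549-myr-AKT1 and 76.8 in A549-vector, and 179 and 44.5 in the HCC827 libraries. CD3E and COL1A2 had no read in any library. The part of these differences in the repair gene result was not tested.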

How the data were processed

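RNA from 4 libraries, 1 per condition, was sequenced with a TruSeq stranded kit; the methods describe poly(A) selection and the labels Ribo-Zero depletion. The authors trimmed reads, mapped them with Bowtie2 to hg38 and counted genes with HTSeq; annotation release and strand setting are not given in the sources used here. The deposited signal of a gene is its reads over the size factor of the library, although the methods name RPKM. Reads were recovered by dividing by the value of 1 read; within 0.001, 100% of values were whole in both myr-AKT1 libraries and all but 1 in each vector library. Genes were named from GENCODE release 44 (60261 of 60558 IDs).

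Folds within a line used the deposited values without a pseudocount and have no p-value. The fit was limma 3.58.1 on log2(normalized count + 1) with a trend, filterByExpr and cell line as a block; edgeR 4.0.16 and DESeq2 1.42.0 on recovered reads were alternatives, with other scalings, filters, pseudocounts and thresholds. Code was tested on simulated data. Intervals cover counting error only, since 1 library per condition shows no spread between cultures. They also take reads as independent molecules, which reads are not. The members and lists were chosen with earlier results of these data known. Named besides the members were AKT1, cell type markers and at most 3 genes per list with the largest mean fold past the threshold in both lines, of which a part is given, since some list genes are not reported here; KRT8, KRT18, KRT19, CDH1, NKX2-1, SFTPB, CD3E, COL1A2, MKI67 and CCNE1 were added after their values were seen. R 4.3.3 and Python 3.11.15 were used.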

Additional observations from a re-analysis of the deposited data

Results flagged for a closer look

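ATM had opposite signs in the lines. Its log2 fold change was 0.2592 in A549 and -0.4279 in HCC827, with 1 library per condition, and the difference was not tested.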

How the results depend on the processing

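The counts of members called lower ranged from 24 to 26 in A549 and from 20 to 24 in HCC827 over the other scalings, the pseudocount, the filters and the removal of the 3 members with over 50% of their exon bases in another gene, an alternative chosen after seeing the data. Among the 12 members without any exon overlap, 12 were called lower in A549 and 10 in HCC827, with medians of -2.17 and -1.70; this alternative has fewer members by construction. At a log2 fold change of -2, 16 members were past it in A549 and 7 in HCC827, beside 2.81% and 3.09% of all genes. In the fit, edgeR with DESeq2 size factors called 4 members lower, beside 57 of 19314 genes. A pseudocount of 0.1 and a fit without the block called 0 members, and 0 of all genes in either direction. At an unadjusted p under 0.05 (limma) these settings had 27 and 19 members lower, beside 8.42% and 2.23% of genes. The cause of the lost calls was not tested. The 18 members of the reported fit were also called by DESeq2 (21 called) and with a filter of at least 1 read (23 called), and edgeR with TMM called 15 of them. For BRCA2, the adjusted p ranged from 1.18e-16 to 1 over the alternatives, and 1 was the highest for every member. Under the other scalings 8 values of single members, those of ATM, ATR, MSH6, NBN and RBBP8, moved beyond their counting interval, and none of these changed sign. The labels carry no replicate numbers, and the only pairing is that of the libraries of a line, which the reported fit uses as its block. The spread between cultures of a line is unknown with 1 library per condition.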
